A study of Mus musculus with 18 samples.

Results

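The dystrophin-glycoprotein complex and dysferlin-dependent membrane repair were described through 9 genes: Dmd, Utrn, Dag1, Sgca, Sgcb, Sgcd, Sntb1, Dtna and Dysf. They were listed by symbol, with earlier results of these data known. All 9 were matched by gene identifier among 47728 identifiers, and all 9 passed the filter on low counts that left 17571 genes. Bulk RNA was measured in 15 mouse libraries, 3 in each of 5 groups. The iPax3 and iPax7 groups were myogenic progenitors derived from pluripotent stem cells (PSC; the labels also call them ES-derived), sorted from embryoid bodies as Vcam1+ Flk1- cells and expanded in doxycycline and bFGF over 3 passages. The groups Emb and Fet were myoblasts of My5Cre Rosa26YFP animals, taken as E10.5 embryos and E14.5 fetuses, and Neo were satellite cells of Pax7-ZsGreen hindlimb muscle at postnatal day 3. Single-cell RNA was measured in 1 library of adult satellite cells (Pax7-ZsGreen, tibialis anterior, 3 months old) and 1 library of iPax3 cells. Tissue-derived cells were sorted fresh whereas PSC-derived cells were cultured, so origin and culture cannot be told apart. The tissue groups come from reporter animals, so what they stand for depends on which cells each reporter marks. The labels do not say whether the 3 libraries of a group came from separate cultures or animals, so p-values measure only the spread between these libraries.

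Dystrophin is a long rod-shaped protein that ties the actin cytoskeleton of the muscle fibre to a complex in its membrane, and utrophin is its close relative, made widely in immature muscle and in other tissues. Dystroglycan spans the membrane and holds laminin outside and dystrophin or utrophin inside, the sarcoglycans brace it, and syntrophin and dystrobrevin gather signalling proteins on the inner face. Dysferlin is a calcium-binding membrane protein that brings vesicles to a tear in the membrane. Loss of dystrophin, of a sarcoglycan or of dysferlin each causes a muscular dystrophy.

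Gene-level counts summed every transcript of a gene, which matters where a gene has more than 1 start. The RefSeq promoter table (GRCm38.p6) lists 2 start sites for Dag1, whose windows overlap and are not shown, and 2 each for Dmd and Dysf. The 250 bases before each start are shown for that reason, in lower case, with GC boxes (GGGCGG on either strand, overlaps kept) in capitals. The first Dmd start opens the full-length gene, and the second lies inside it, near the starts of protein-coding transcripts that run to the end of the gene and make short dystrophins.
Dmd first start, chrX:82948620-82948869, plus strand: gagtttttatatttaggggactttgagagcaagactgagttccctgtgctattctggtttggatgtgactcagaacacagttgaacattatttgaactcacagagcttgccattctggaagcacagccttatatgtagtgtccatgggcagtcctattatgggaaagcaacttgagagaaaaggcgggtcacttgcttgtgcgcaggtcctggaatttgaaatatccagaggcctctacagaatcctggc
Dmd internal start, chrX:85048045-85048294, plus strand: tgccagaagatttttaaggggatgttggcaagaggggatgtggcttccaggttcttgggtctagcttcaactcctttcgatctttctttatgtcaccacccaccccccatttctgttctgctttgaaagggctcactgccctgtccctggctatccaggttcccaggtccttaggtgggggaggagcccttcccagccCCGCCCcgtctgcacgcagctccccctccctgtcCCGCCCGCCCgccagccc
Dysf first start, chr6:84008348-84008597, plus strand: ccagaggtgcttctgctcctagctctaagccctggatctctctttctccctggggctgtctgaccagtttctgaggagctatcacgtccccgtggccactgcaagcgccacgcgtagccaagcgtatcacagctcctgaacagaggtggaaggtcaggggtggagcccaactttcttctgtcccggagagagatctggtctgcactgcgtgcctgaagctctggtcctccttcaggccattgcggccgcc
Dysf second start, chr6:84019136-84019385, plus strand: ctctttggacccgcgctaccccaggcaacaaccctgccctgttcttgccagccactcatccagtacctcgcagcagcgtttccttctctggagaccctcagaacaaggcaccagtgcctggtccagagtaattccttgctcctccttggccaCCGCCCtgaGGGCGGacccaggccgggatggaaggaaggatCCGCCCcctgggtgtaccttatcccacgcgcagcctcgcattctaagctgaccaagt
The 2 Dmd windows differed in base composition, with 45.2% G and C before the first start and 60.0% before the internal one. No GC box was found before the first Dmd start or the first Dysf start, whereas 3 stood before each of the other Dmd and Dysf starts. Of 32851 promoter windows of that length, 32.7% hold at least 1. For the members, 10 windows of 7 genes were examined, and none of Sntb1 or Dtna. The E-box CAGCTG, a form bound by MyoD, was in none of these 10 windows and in 13.0% of the 32851. These matches are descriptions of the letters, and the counts do not show which start was used in any library.

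The libraries differed in depth and content in ways that touch the members. Total counts ran from 516504 in Fet replicate 1 to 56275318 in iPax3 replicate 1. In iPax7 replicate 1, the pluripotency genes Sox2, Pou5f1 and Nanog stood at 505, 550 and 511 CPM (counts scaled by library size, with TMM normalization), against 1.05 or less in both other iPax7 libraries, and Pax7 stood at 0.989 CPM. In the Neo libraries, 12 endothelial markers summed to 2685 to 3619 CPM, against 296 to 619 in Fet and 17.3 to 152 elsewhere, with Cdh5 at 357 to 840 CPM, and Pax7 stood at only 0.495 to 5.12 CPM. The 12 fibroblast markers summed to 33860 to 37210 CPM in Fet, 37630 to 113400 in Neo, 3157 to 3409 in Emb and 297 to 2108 in the PSC-derived libraries. In bulk RNA, fewer cells of a type and less RNA per cell cannot be told apart.

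Across the 11 group comparisons, 11 member differences passed the test: 6 of Utrn, 4 of Dysf and 1 of Dmd. No comparison had more than 2 of the 9 members passing. Of all tested genes, 0.0740% (iPax7 minus iPax3) to 28.1% (PSC-derived minus tissue-derived) passed per comparison. Utrn was higher in both PSC-derived groups than in Emb and Fet, Dysf was higher in Neo than in every other group, and Dmd was lower in iPax3 than in Neo. Dag1, the 3 sarcoglycans, Sntb1 and Dtna passed in no comparison. A call here is a Benjamini-Hochberg adjusted p at or under 0.05, over all 17571 genes, from the quasi-likelihood test of edgeR.

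**Figure D1:**
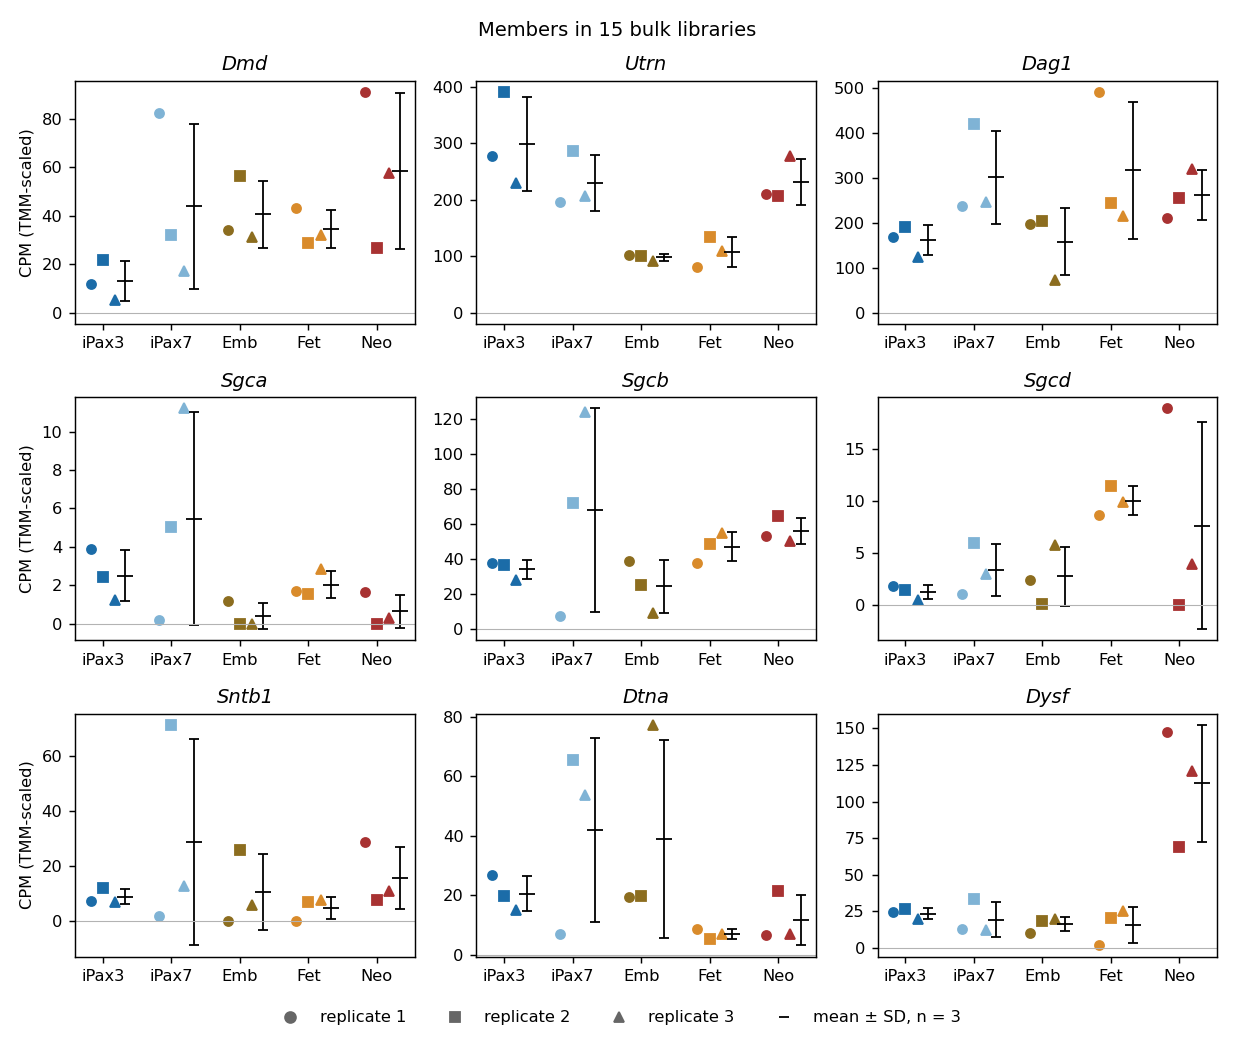
CPM of the 9 members in each of the 15 bulk libraries, one panel per gene with its own linear axis, marker shape for the replicate number and a bar for the mean ± SD of 3 libraries. Utrn in Emb and Fet lay below all other groups' libraries, and Dysf in Neo, at 69.0 to 148 CPM, lay above all other libraries.

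Utrn was 278, 391 and 229 CPM in iPax3 replicates 1, 2 and 3, and 196, 287 and 207 CPM in iPax7. It was 102, 101 and 91.5 CPM in Emb, 81.3, 134 and 109 CPM in Fet, and 209, 206 and 278 CPM in Neo. Every iPax3, iPax7 and Neo library was therefore above every Emb and Fet library. By group mean the order was iPax3 (299 ± 82.8 CPM, SD, n = 3), Neo (231 ± 40.8), iPax7 (230 ± 49.7), Fet (108 ± 26.6) and Emb (98.2 ± 5.77). Of neighbours in that order, only iPax7 and Fet did not overlap.

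Relative to Emb, Utrn rose by a log2 fold change of 1.61 ± 0.28 (SE) in iPax3 (adjusted p = 0.0013, edgeR) and 1.23 ± 0.28 in iPax7 (adjusted p = 0.0096). It was the only member called of 9 in each, where 17.0% and 14.0% of all tested genes were called. The rise over Fet was 1.46 ± 0.28 in iPax3 (adjusted p = 0.0035), again the only member called, against 8.53% of all genes. In iPax7 it was 1.08 ± 0.28 over Fet (adjusted p = 0.041, edgeR), where 3.70% of genes were called. That last call did not hold without iPax3 replicate 1, iPax7 replicate 2 or 3, any 1 Fet library or Neo replicate 1 (adjusted p = 0.053 to 0.18). These comparisons share the Emb, Fet and iPax libraries, so they are not independent of each other.

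Against the mean of the 3 tissue-derived groups, Utrn was higher by 0.96 ± 0.18 on the log2 scale in the PSC-derived groups (adjusted p = 8e-04, edgeR), although the 2 sets of libraries overlapped through Neo. Of the 9 members it was the only one called, where 28.1% of all genes were, and the members' median log2 difference was 0.26 against 0.29 over all tested genes. With the Neo group left out, the Utrn difference was 1.34 (adjusted p = 0.00074). Leaving out iPax7 replicate 1 added 2 member calls, Dmd at -1.24 (adjusted p = 0.037) and Dtna at 1.29 (adjusted p = 0.044), against -0.85 ± 0.41 and 1.01 ± 0.51 with it. Dtna also passed without Emb replicate 3 (1.35, adjusted p = 0.05). Leaving out Emb replicate 1 added Sgca at 4.23 (adjusted p = 0.014), with both remaining Emb libraries at 0 counts. Among tissue stages, Utrn was higher in Neo than in Emb by 1.24 ± 0.28 (adjusted p = 0.0065). The Neo minus Fet difference was 1.09 ± 0.28 with no overlap between the libraries (adjusted p = 0.052, edgeR), and it passed with relative log expression (RLE) size factors in place of TMM (1.20, adjusted p = 0.029), with DESeq2, on thinned counts, and without iPax7 replicate 1 or Emb replicate 3. Endothelial and fibroblast markers were highest in the same Neo libraries, and their part in the Utrn level was not tested.

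Dmd was lowest in iPax3, at 11.9, 22.0 and 5.46 CPM, and all 3 libraries were below every tissue-derived library. It was 34.0, 56.6 and 31.3 CPM in Emb, 43.2, 28.6 and 31.9 CPM in Fet, and 91.1, 26.6 and 57.5 CPM in Neo. In iPax7 it was 82.4, 32.3 and 17.4 CPM, and the high value belonged to the library with pluripotency genes. By group mean the order was Neo (58.4 ± 32.2 CPM), iPax7 (44.0 ± 34.0), Emb (40.6 ± 13.9), Fet (34.6 ± 7.67) and iPax3 (13.1 ± 8.32), and only Fet and iPax3 did not overlap among neighbours. Without replicate 1 the iPax7 mean was 24.8 CPM, below Emb and Fet, so the place of iPax7 in that order rests on that library.

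The fall of Dmd in iPax3 relative to Neo was called, by 2.15 ± 0.65 on the log2 scale (-2.15, adjusted p = 0.026, edgeR). It was 1 of 2 members lower there, where 22.6% of all genes were called and 11.3% were lower. The call did not hold without iPax3 replicate 1 or 3 or without Neo replicate 1 or 3 (-2.14 to -1.67, adjusted p = 0.052 to 0.12). Against Emb the difference was -1.63 ± 0.64 (adjusted p = 0.088), and DESeq2 called it at -1.73 (adjusted p = 0.031). Against Fet it was -1.38 ± 0.64 (adjusted p = 0.21). Between iPax7 and iPax3 no member was called by edgeR, where 13 genes were (0.0740%) and 1083 genes, Dmd and Dag1 among them, had an unadjusted p under 0.05. DESeq2 called 251 genes there and none of the 9 members.

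**Figure D2:**
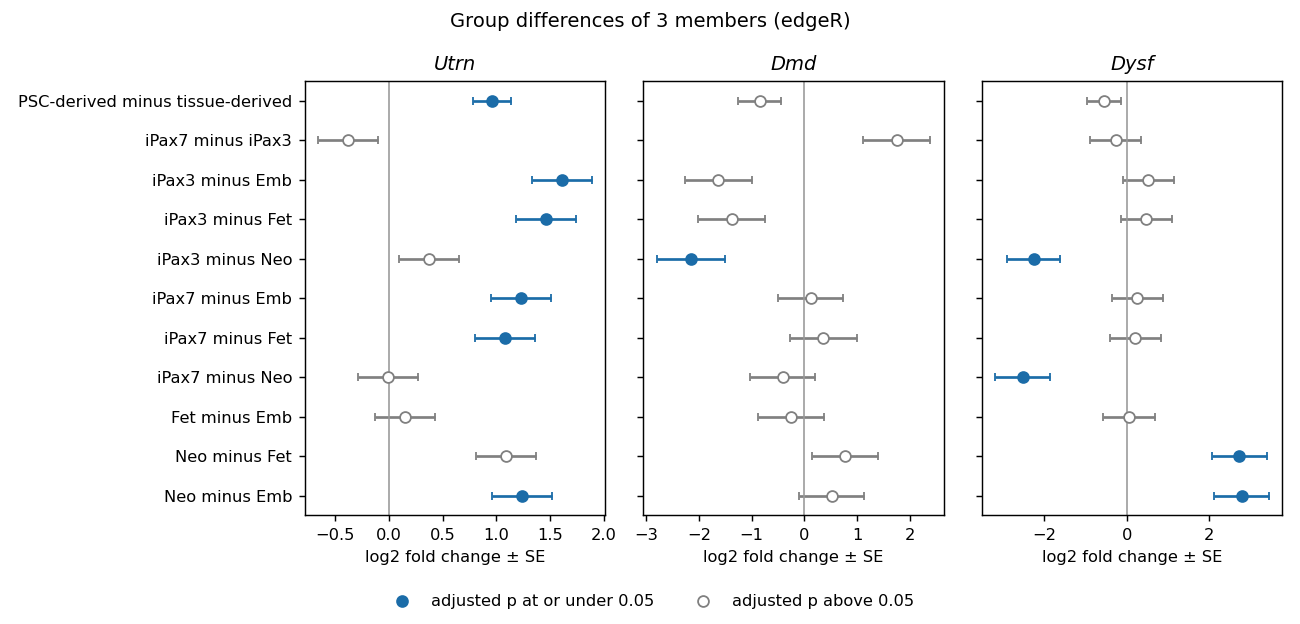
Log2 fold change with its standard error for Utrn, Dmd and Dysf in the 11 group comparisons, each panel with its own axis, filled where edgeR's adjusted p was at or under 0.05. Utrn has 6 filled points, all above 0, Dmd has 1 below 0, and Dysf has 4, which are those between Neo and 1 other group.

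The ratio of utrophin to dystrophin transcripts was highest in iPax3. Per kb of exon (17.11 kb for Utrn, 23.8 kb for Dmd), the ratio was 32.4, 24.7 and 58.5 in the iPax3 libraries. It was 3.31, 12.4 and 16.5 in iPax7, 4.17, 2.48 and 4.07 in Emb, 2.62, 6.54 and 4.74 in Fet, and 3.2, 10.8 and 6.74 in Neo. Every iPax3 library was above each of the other 12, and Utrn exceeded Dmd in all 15. The ratio was formed from genes already compared above and is given as a description, with no test. It scales by the same factor in every library if counts are not divided by length, and Dmd counts include any short products.

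**Figure D3:**
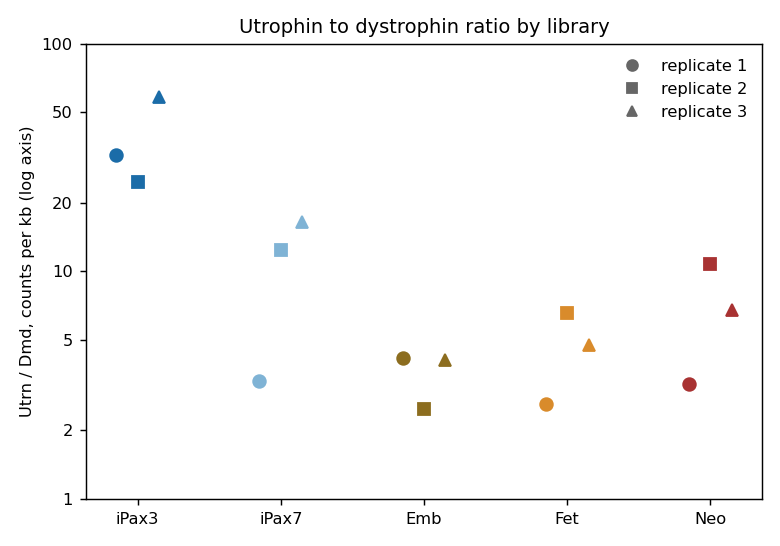
Ratio of Utrn to Dmd counts per kb of exon in each bulk library, on a log axis, by group and replicate. The 3 iPax3 libraries, at 24.7 to 58.5, lie above all others, whose highest value is 16.5.

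Dag1, which encodes both dystroglycan subunits, was the most abundant member per kb in every group, with mean RPKM of 24.9 in Emb to 49.8 in Fet. It was 169, 191 and 125 CPM in iPax3 and 238, 420 and 246 CPM in iPax7, with no overlap between the 2 groups, but the difference was not called (log2 0.90 ± 0.40, adjusted p = 0.76, edgeR). It was 197, 205 and 72.1 CPM in Emb, 491, 245 and 214 CPM in Fet, and 210, 256 and 321 CPM in Neo. The highest value was in the shallowest library, Fet replicate 1, and thinning all libraries to its depth gave a call for iPax3 minus Fet (-1.22, adjusted p = 0.041) that was absent at full depth (-0.96 ± 0.40, adjusted p = 0.15).

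The sarcoglycans differed widely in level. Sgcb (beta-sarcoglycan) was the most abundant of the 3 per kb, with mean RPKM of 6.04 in Emb to 16.8 in iPax7. It was 37.8, 36.6 and 28.0 CPM in iPax3, 7.77, 72.0 and 124 CPM in iPax7, 39.1, 25.2 and 9.05 CPM in Emb, 38.0, 48.5 and 54.8 CPM in Fet, and 53.3, 64.6 and 50.3 CPM in Neo. Its spread was widest within iPax7, where the library with pluripotency genes held the lowest value. Without that library, Sgcb was called higher in iPax7 than in Emb (2.02, adjusted p = 0.015, edgeR), against 1.47 ± 0.68 (adjusted p = 0.16) with it.

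Sgca (alpha-sarcoglycan, restricted to striated muscle) was low in CPM, with group means of 0.386 in Emb to 5.48 in iPax7. Its counts ran from 0 in Emb replicates 2 and 3 and Neo replicate 2 to 222 in iPax3 replicate 1. It was 3.89, 2.41 and 1.21 CPM in iPax3, 0.183, 5.03 and 11.2 CPM in iPax7, 1.73, 1.52 and 2.85 CPM in Fet, 1.63, 0 and 0.301 CPM in Neo, and 1.16, 0 and 0 CPM in Emb. The 2 highest values were in iPax7 replicates 2 and 3, whose 20 muscle differentiation markers also had the highest sums, at 3594 and 3955 CPM, against 140 in iPax7 replicate 1 and 516 to 1802 in the other libraries. No group difference of Sgca was called over all 15 libraries, with standard errors of 1.15 to 1.98 on the log2 scale. Without Emb replicate 1, iPax3 minus Emb and iPax7 minus Emb were called (adjusted p = 0.032 and 0.024), against a group with no Sgca count.

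Sgcd (delta-sarcoglycan) was 8.65, 11.4 and 9.91 CPM in Fet. It was 1.79, 1.38 and 0.422 CPM in iPax3, 1.06, 5.95 and 2.96 CPM in iPax7, 2.40, 0.0572 and 5.74 CPM in Emb, and 18.9, 0 and 3.91 CPM in Neo. All Fet libraries were above all iPax3, iPax7 and Emb libraries, but the largest of these differences, iPax3 minus Fet at -3.06 ± 1.68, was not called (adjusted p = 0.30, edgeR). The Neo libraries alone spanned 0 to 18.9 CPM, wider than the Fet, Emb and PSC-derived libraries together.

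Sntb1 (beta-1-syntrophin) and Dtna (alpha-dystrobrevin) passed in no comparison over all libraries, and each spanned a wide range within several groups. Sntb1 was 7.44, 11.9 and 6.96 CPM in iPax3, 1.69, 71.2 and 12.6 CPM in iPax7, 0, 25.9 and 5.66 CPM in Emb, 0, 6.76 and 7.49 CPM in Fet, and 28.6, 7.51 and 10.8 CPM in Neo. Dtna was 26.7, 19.9 and 14.9 CPM in iPax3, 6.89, 65.4 and 53.6 CPM in iPax7, 19.4, 19.9 and 77.2 CPM in Emb, 8.65, 5.27 and 7.13 CPM in Fet, and 6.51, 21.4 and 6.92 CPM in Neo. Every iPax3 and Emb library was above every Fet library for Dtna. The Fet minus Emb difference of Dtna was -2.51 ± 0.86 (adjusted p = 0.098, edgeR), and DESeq2 called it (-2.47, adjusted p = 0.024), as did edgeR without Emb replicate 1 (-2.84, adjusted p = 0.047). Dtna is also expressed in the nervous system, and 12 neural and Schwann cell markers summed to 724 to 1155 CPM in Emb against 166 to 282 in Fet; their part in the Dtna level was not tested. Over all libraries, edgeR called 0 of 9 members between Fet and Emb, with 2 at an unadjusted p under 0.05, where 3.65% of all genes were called. Without iPax7 replicate 1, Dtna was called higher in iPax7 than in Fet (3.14, adjusted p = 0.029) and than in Neo (2.38, adjusted p = 0.044), against 2.62 ± 0.86 (adjusted p = 0.11) and 1.85 ± 0.82 (adjusted p = 0.12) with it.

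Dysf was 148, 69.0 and 121 CPM in Neo, above every other library. It was 24.5, 26.4 and 19.5 CPM in iPax3, 12.9, 33.2 and 12.1 CPM in iPax7, 10.6, 18.6 and 19.9 CPM in Emb, and 1.73, 20.5 and 25.2 CPM in Fet, where the lowest value was 1 count in the shallowest library. The 4 groups other than Neo overlapped each other, with means of 15.8 to 23.5 CPM against 113 ± 39.9 (SD, n = 3) in Neo.

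Dysf was lower in iPax7 than in Neo by 2.53 ± 0.66 on the log2 scale (-2.53, adjusted p = 0.015, edgeR), the only member called there against 18.2% of all genes. In iPax3 it was lower than in Neo by 2.26 ± 0.65 (-2.26, adjusted p = 0.021). Neo exceeded Emb by 2.78 ± 0.66 (adjusted p = 0.0088), where Utrn and Dysf were the 2 members called against 20.1% of all genes. Neo exceeded Fet by 2.73 ± 0.66 (adjusted p = 0.038), the only member called against 2.37% of all genes. The Neo minus Emb call held without each library in turn, at 2.52 to 3.03. The Neo minus Fet call was lost without any 1 of the iPax3, Fet or Neo libraries (2.29 to 3.15, adjusted p = 0.056 to 0.16) and with a replicate block (2.95, adjusted p = 0.054). The iPax3 minus Neo call was lost without any 1 iPax3 library or Neo replicate 1 or 3 (adjusted p = 0.055 to 0.09), and the iPax7 minus Neo call without iPax7 replicate 3 or Neo replicate 1 (adjusted p = 0.061 and 0.059). The same Neo libraries had the highest endothelial marker sums, with Pecam1 at 761 to 813 CPM, and low Pax7; the part of other cells in the Dysf level was not tested. The antisense models that overlap Dysf exons held 4 and 20 counts over all libraries.

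The wider membrane repair list of 30 genes, all tested, had 17 genes that rose and 0 that fell in PSC-derived relative to tissue-derived groups, against 16.4% of all genes higher, with a median log2 difference of 1.35 against 0.29 over all genes. Anxa1, an annexin that binds membrane lipid in the presence of calcium, rose by 4.85 ± 0.30 (adjusted p = 1.7e-08, edgeR). Its mean was 92.4 CPM over tissue-derived and 820 CPM over PSC-derived libraries. The log2 value averages group means on the log scale, so it is not the ratio of these means. Myof, the dysferlin relative myoferlin, rose by 3.31 ± 0.55, the calpain Capn1 by 2.36 ± 0.37, and Pdcd6ip (ALIX, which recruits the ESCRT machinery) by 1.03 ± 0.19. The count was 15 to 20 without each library in turn and 15 with Neo left out. By pair, 17 of the 30 were higher in iPax3 than in Emb and 14 in iPax7, with 0 lower. Of all genes, 17.0% and 14.0% were called there. Against Fet, 4 and 1 were higher and 0 lower, where 8.53% and 3.70% of all genes were called. Against Neo, 8 and 3 were higher, with 0 and 1 lower, where 22.6% and 18.2% were called. The count was thus largest against Emb. In Neo relative to Emb, 14 of the 30 rose and 3 fell, where 11.7% of all genes were higher and 8.43% lower, with Anxa1 up 7.05 ± 0.56 and Ptrf, the caveolar coat gene also called Cavin1, up 5.77 ± 0.59. The counts were 10 and 1 without Neo replicate 1, 13 and 1 without replicate 2, 12 and 1 without replicate 3, and 15 and 0 of 26 tested on thinned counts. The endothelial and fibroblast marker sums were higher in the same Neo libraries, and their part was not tested. Between iPax7 and iPax3, edgeR called 0 of the 30. Dysf itself stood at -0.56 ± 0.41 in the PSC-derived minus tissue-derived comparison (adjusted p = 0.33), and its difference from the list was not tested.

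Of 20 further genes of the dystrophin complex and its cytoskeletal partners, 17 were tested, and 3 rose and 1 fell in PSC-derived relative to tissue-derived groups, where 16.4% of all genes were higher and 11.7% lower. Without Emb replicate 1, 6 of the 17 rose, and without Neo replicate 3, 5 did. Plec, the cytoskeletal linker plectin, rose by 1.41 ± 0.23 (adjusted p = 0.00031, edgeR), Sync (syncoilin, a dystrobrevin-binding intermediate filament protein) by 4.33 ± 0.77 and Dst (dystonin) by 0.48 ± 0.13. Ank2, an ankyrin that places dystrophin at the membrane, fell by 2.77 ± 0.33, from 79.0 to 10.8 CPM. Of 19 genes that glycosylate dystroglycan or supply its sugars, 2 rose and none fell: Tmem5 (Rxylt1, 1.60 ± 0.37) and Pomgnt1 (0.90 ± 0.25). Without Emb replicate 1, 5 of the 19 rose, and without Emb replicate 2, 4 did. Of 18 laminin, matrix and integrin linkage genes, 3 rose, among them Vcl (vinculin, 1.83 ± 0.33) and Tln1 (talin, 1.21 ± 0.28), and 2 fell, Lama4 (-5.81 ± 0.40) and Bgn (biglycan, -2.56 ± 0.37). Without iPax7 replicate 1 or Emb replicate 2, 5 of the 18 rose. Over all 15 libraries, all 3 shares were near those over all genes or below them. The count over all genes moved in the left-out settings too. From 4943 genes called, 58.4% of them higher, it went to 6782 (68.9%) without Emb replicate 1 and 5378 (60.9%) without Emb replicate 2. It was 5327 (63.8%) without Neo replicate 3 and 4711 (55.8%) without iPax7 replicate 1. Lama4 and Bgn were highest in the groups with the highest fibroblast marker sums, which also had the highest endothelial marker sums. The part of either was not tested.

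Likeness between genes was described by Pearson's correlation of log2 CPM over the 15 libraries, which share groups, depth and composition. The genes most like Utrn were Tnfrsf12a (r = 0.945), Gprc5a (0.942) and Myh9 (0.926), and those most like Dysf were Prcp (0.947), Tspan2 (0.929) and H2-D1 (0.893). For Dmd they were Dkk3, Tbx3 and Npepl1 (0.843 to 0.86), and for Sgca they were Ppargc1a (0.978), Smpd1 and Snx24. Among members, the highest values were 0.69 for Sntb1 with Dysf and 0.61 for Sgca with Sgcb, and Dmd with Utrn stood at -0.27.

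In the single-cell libraries, unique molecular identifiers (UMIs) were summed over 579 adult satellite cells and 2931 iPax3 cells, with medians of 10760 and 11720 UMIs per cell and 1 barcode in common. Each kind of cell came from 1 library, so no test was possible, and intervals cover counting error only. By a rule of size, a 2-fold ratio of CPM, 4 of 9 members were lower in iPax3 (Dmd, Dag1, Sntb1 and Dysf) and 2 were higher (Sgcd and Dtna). Of 13015 genes measured, 60.7% were past 2-fold, 25.1% lower and 35.6% higher. The members' count in either direction is near that share, but more members were lower than higher, unlike all genes. Sgcd and Sntb1, whose intervals included 1, are in that count. The median log2 ratio was -0.93 over the members and 0.34 over all genes. The adult library also held UMIs of immune (1353 CPM summed over 10 markers), fibroblast (2338) and endothelial (651) markers, against 6.56, 179 and 40.6 CPM in iPax3, and their part in the ratios was not tested.

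Dmd showed the lowest ratio, with 31.9 CPM in adult satellite cells (95% interval 28.1 to 36.1) and 1.85 CPM in iPax3 cells (1.46 to 2.31). It was thus 17.2-fold lower in iPax3 (13.3 to 22.5), a ratio of 0.0580. With cells limited to at least 1000 UMIs and under 5% mitochondrial UMIs the ratio was 0.0194 (0.00875 to 0.0373), lower still and outside that interval. That filter left 258 of 329 Dmd UMIs and 523 of 1209 Utrn UMIs over both libraries. Adult cells had held 200 of those Utrn UMIs, so most of the Utrn loss was in iPax3, and the filtered ratio rests on a smaller part of that library. Utrn was 25.3 CPM in adult cells and 24.2 CPM in iPax3 cells, a ratio of 0.958 (0.823 to 1.12). There were thus 0.794 Utrn UMIs per Dmd UMI in adult cells and 13.1 in iPax3 cells. Single-cell UMIs come from transcript 3′ ends, which full-length and short dystrophin transcripts share.

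Dag1 was 182 CPM in adult cells and 34.9 CPM in iPax3 cells, 5.22-fold lower (4.85 to 5.62), and Dysf was 7.21 and 1.71 CPM, 4.23-fold lower (2.93 to 6.07). Sgca was 25.0 and 18.1 CPM, a ratio of 0.722 (0.617 to 0.849), and Sgcb was 19.1 and 10.0 CPM, a ratio of 0.525 (0.435 to 0.636). Dtna had 1 UMI in the adult library and 167 in iPax3, a ratio of 31.7 with an interval of 5.62 to 1260. Sgcd (1 and 27 UMIs, ratio 5.13, 0.845 to 210) and Sntb1 (7 and 16 UMIs, ratio 0.434, 0.169 to 1.25) were too sparse for a direction, since their intervals include 1. With cells limited to at least 1000 UMIs and under 5% mitochondrial UMIs, Sgca and Sgcb passed the 2-fold rule (0.416 and 0.449), whereas Sgcd and Sntb1 no longer had the 20 UMIs required, so that 6 of 7 members tested passed. Sgca then had 350 summed UMIs over both libraries, against 951 before, and Sgcb 274 against 568.

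**Figure D4:**
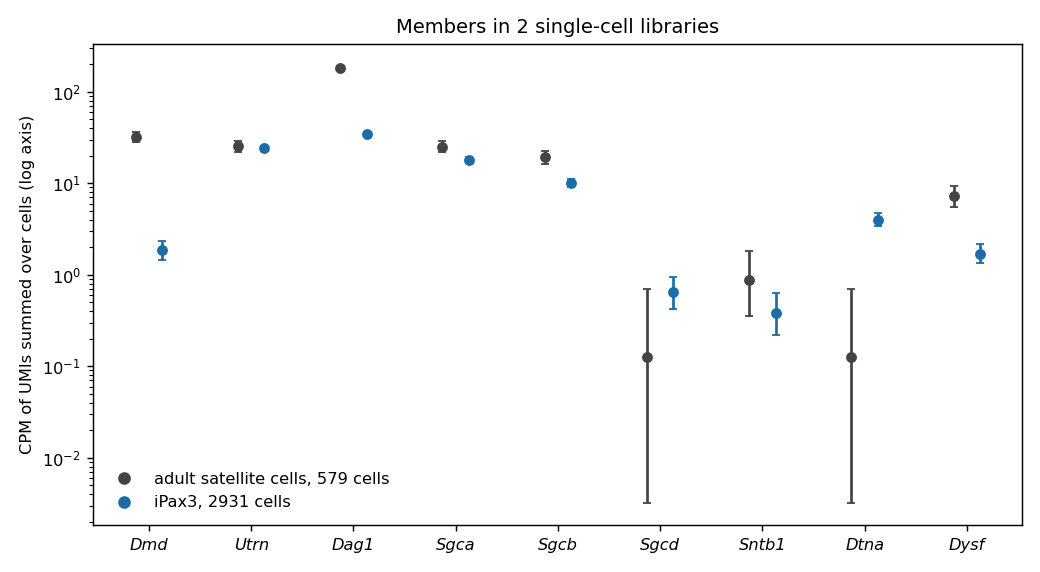
CPM of UMIs summed over cells for the 9 members in adult satellite cells and in iPax3 cells, on a log axis, with exact 95% Poisson intervals for counting error. Utrn lies at the same height in both libraries (25.3 and 24.2 CPM), whereas Dmd drops from 31.9 to 1.85 CPM.

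After every cell was thinned to 2000 UMIs, 7.25% of adult cells (5.28 to 9.68, Clopper-Pearson) and 0.478% of iPax3 cells (0.261 to 0.800) held a Dmd UMI, against 32.0% and 2.52% before thinning. For Utrn the thinned shares were 4.49% (2.95 to 6.51) and 5.19% (4.41 to 6.05), and for Dag1 32.6% and 7.23%. Barcodes with under 100 UMIs, which carry mostly free RNA, held Dmd at 32.6 CPM (16 UMIs) in the adult library, near the 31.9 CPM of its cells. In iPax3 they held it at 0.940 CPM (2 UMIs), too few to place against the 1.85 CPM of its cells. Dag1 in such barcodes was 171 CPM in the adult library, against 182 CPM in cells, and 15.99 CPM in iPax3, against 34.9 CPM in cells. No cell type that lacks these genes was set apart within either library, so the share that free RNA alone would give was not measured.

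Within the iPax3 library, the 3 sarcoglycans were higher in cells with a UMI of the differentiation factor Myog than in cells with none. In a deeper matrix that includes these cells, only Sgca of the 3 had an interval above 1, but few cells there lacked a Myog UMI. Myog UMIs were in 1517 cells and absent from 1414, with median depths of 13160 and 10720 UMIs. Most of the cells without a Myog UMI held one at greater depth, so the split does not set Myog-negative cells apart. Sgca was 21.3 CPM with Myog and 13.7 CPM without, a ratio of 1.56 (1.34 to 1.83), Sgcb was 11.04 and 8.602 CPM (1.28, 1.05 to 1.58), and Sgcd had 22 and 5 UMIs (3.17, 1.17 to 10.7). Utrn went the other way, at 22.5 and 26.7 CPM (0.840, 0.741 to 0.953), and Dag1 was 34.9 CPM in both (0.998, 0.898 to 1.11). The intervals of Dmd, Dtna, Dysf and Sntb1 included 1. In the deeper pooled matrix, whose cells include all of these, Myog was absent from only 120 cells, against 3207 with it. Median depths there were 21400 and 40710 UMIs. The ratio in that matrix was 1.49 for Sgca (1.09 to 2.10). The intervals of Sgcb (0.967, 0.720 to 1.33), Sgcd and Utrn (0.944, 0.770 to 1.17) included 1, and Dag1 stood at 1.22 (1.001 to 1.51). Few cells lacked a Myog UMI there, and they held 1 Sgcd UMI. An interval that includes 1 therefore does not show that a difference was lost.

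In the 871 cells with at least 2 Myog UMIs, the ratio to cells without was 2.00 (1.70 to 2.36) for Sgca, 1.51 (1.21 to 1.89) for Sgcb and 4.04 (1.41 to 14.1) for Sgcd. It was 1.84 for Dtna (1.31 to 2.61), 2.12 for Dysf (1.22 to 3.78), 4.63 for Sntb1 (1.22 to 25.8) and 0.796 for Utrn (0.686 to 0.923). At the same threshold in the deeper matrix, Sgca (1.505, 1.10 to 2.12) and Dag1 (1.23, 1.002 to 1.51) had intervals above 1, and those of Dtna (1.39, 0.750 to 2.91), Dysf (1.33, 0.564 to 4.12), Sntb1, Sgcb, Sgcd, Utrn and Dmd included 1. Cells are not replicates, and these intervals cover counting error within 1 library. Free RNA in this library held Sgca at 18.3 CPM, near the level in cells. In the adult library only 30 cells held a Myog UMI, and the interval of every member's ratio included 1. The authors' deposited table of 7 iPax3 clusters gave the means per cluster: cluster 1, with a mean of 5.68 Myog and 10.4 Acta1 UMIs, held the highest means of Sgca (0.509), Sgcb (0.196), Dtna (0.112) and Dysf (0.0383). In that authors' deposited table, the highest mean of Utrn (0.366) was in cluster 3, and that of Dmd (0.0653) was in cluster 7.

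**Figure D5:**
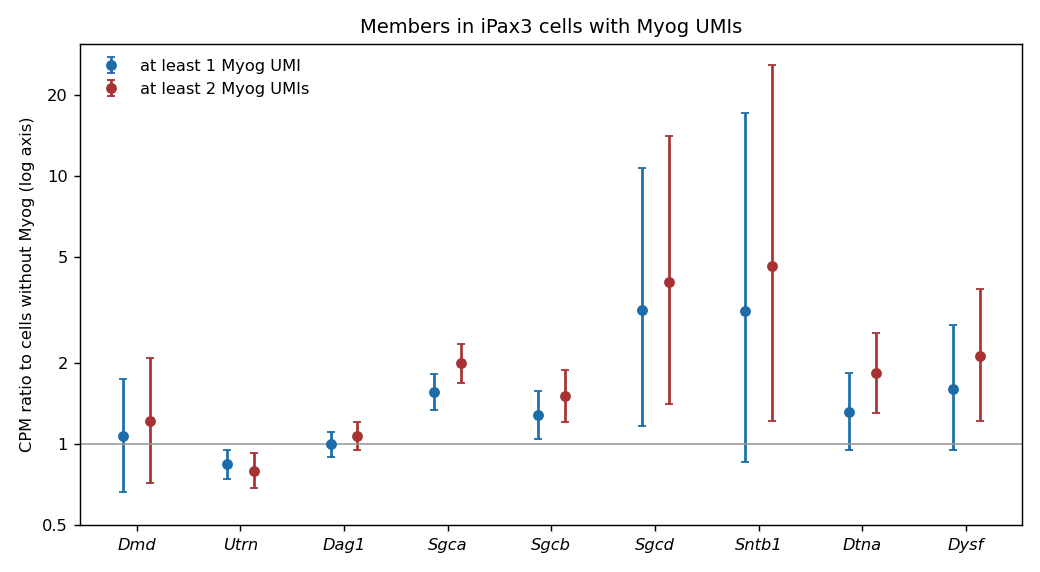
Ratio of each member's CPM in iPax3 cells with at least 1 or at least 2 Myog UMIs to its CPM in cells without a Myog UMI, on a log axis, with exact 95% intervals for counting error. Sgca, Sgcb and Sgcd lie above 1 at both thresholds and Utrn lies below 1 at both.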

How the data were processed

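Bulk RNA-seq counts were deposited by the authors as reads per gene, made with CASAVA 1.8, HISAT2 2.0.2 and featureCounts of Subread 1.4.6 on mm10, per the submitters' processing notes; which annotation release, strand setting and rule for multiply aligned reads were used is not given in the sources used here. Single-cell UMI counts and the mean UMI counts per cluster were deposited by the authors from Cell Ranger 2.2.0, per the submitters' processing notes and the file headers. All columns of the deposited tables used were mapped (0 left unmapped). The third single-cell matrix was not used for the main values, since it holds cells of the other libraries again (577 of the 579 adult cells, and all 2931 iPax3 cells sequenced deeper). The 9 members and the gene lists were chosen with earlier results of these data known, and genes outside the members were named as the called genes with the lowest adjusted p of each list.

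Genes were filtered with filterByExpr, scaled by TMM and fitted with edgeR 4.0.16 (robust quasi-likelihood, 1 mean per group over all 15 libraries, R 4.3.3, limma 3.58.1), with Benjamini-Hochberg adjustment over 17571 genes at 0.05. RPKM used the union of GENCODE exons (GRCm38). On simulated data for the PSC-derived minus tissue-derived comparison over 17025 genes, with 100 genes changed at each size, 41% of 4-fold and 57% of 16-fold changes were called. The 30 correlations of residuals between libraries of the same number ran from -0.331 to 0.0767, so replicate numbers do not pair libraries. Alternatives were RLE factors, DESeq2 1.42.0, no filter, a replicate block, thinning to 516504 counts and leaving out libraries. Cells needed at least 500 UMIs, a total of at least 10% of that at the 99th percentile among the 3000 deepest barcodes, and under 10% mitochondrial UMIs; no doublet caller was run (pandas 2.3.3 and scipy 1.17.1 under Python 3.11.15). The 95% intervals (Poisson, binomial) cover counting error only.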

Additional observations from a re-analysis of the deposited data

How the results depend on the processing

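Under every alternative, all bulk member differences that were called kept their direction. Calls of Utrn in PSC-derived minus tissue-derived, iPax3 minus Emb, iPax3 minus Fet, iPax7 minus Emb and Neo minus Emb, and of Dysf in Neo minus Emb, passed under each setting run (22 or 21 settings); the other 5 calls were each lost under at least 2. Without each library in turn, the number of members called ran from 1 to 3 in PSC-derived minus tissue-derived, 1 to 2 in iPax3 minus Emb and iPax7 minus Emb, 0 to 2 in iPax3 minus Neo, iPax7 minus Fet, iPax7 minus Neo and Neo minus Fet, and 0 to 1 in Fet minus Emb; it did not move in the other 3 comparisons. DESeq2 called 2 members in iPax3 minus Emb, 2 in iPax7 minus Fet, 1 in Fet minus Emb and 2 in Neo minus Fet. RLE size factors gave 2 in Neo minus Fet, and the replicate block gave 0 there and changed no other member call; samples share only a number, so that loss is not read as a weaker effect. Thinned counts gave 2 in iPax3 minus Fet, 0 in iPax7 minus Fet and 2 in Neo minus Fet. Leaving out iPax7 replicate 1 and Fet replicate 1 together, chosen after seeing the data, gave 2 in iPax7 minus Emb and 0 in iPax7 minus Fet, and leaving out Neo gave 0 in iPax7 minus Fet. The causes were not tested.

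Counts over all genes moved more. DESeq2 called 251 genes against 13 in iPax7 minus iPax3, 2784 against 1498 in iPax3 minus Fet, 4003 against 2468 in iPax7 minus Emb, 1732 against 650 in iPax7 minus Fet, 2174 against 641 in Fet minus Emb and 1662 against 416 in Neo minus Fet. With the replicate block these were 7 in iPax7 minus iPax3, 1517 in iPax7 minus Emb, 379 in Fet minus Emb and 263 in Neo minus Fet. Thinned counts gave 643 in Neo minus Fet and 2349 against 3538 in Neo minus Emb. In iPax7 minus iPax3, no filter gave 22 genes, both libraries left out 31 and Neo left out 4, and Neo left out gave 1222 in Fet minus Emb. Leaving out 1 library moved the count by over 1.5 times in all but PSC-derived minus tissue-derived and Neo minus Emb. It ran from 3 (iPax3 replicate 3 left out) to 40 (iPax7 replicate 1) in iPax7 minus iPax3, 1492 (iPax3 replicate 1) to 5060 (Emb replicate 1) in iPax3 minus Emb, 624 (iPax3 replicate 3) to 1968 (iPax7 replicate 1) in iPax3 minus Fet, 2002 (iPax3 replicate 3) to 4836 (Emb replicate 2) in iPax3 minus Neo, 1301 (iPax7 replicate 3) to 4810 (Emb replicate 1) in iPax7 minus Emb, 353 (Fet replicate 3) to 827 (Emb replicate 2) in iPax7 minus Fet, 2047 (iPax7 replicate 3) to 4011 (Emb replicate 2) in iPax7 minus Neo, 233 (Fet replicate 2) to 2843 (Emb replicate 1) in Fet minus Emb, and 86 (Fet replicate 2) to 751 (iPax7 replicate 1) in Neo minus Fet, so the shares of all genes called that stand beside the members' calls move with them. With RLE factors, 39.1% of called genes were higher in iPax3 minus Neo, against 49.9%, and the median log2 difference of all genes moved from 0.29 to 0.17 in PSC-derived minus tissue-derived, 0.24 to 0.14 in iPax3 minus Emb, 0.03 to -0.11 in iPax3 minus Fet, 0.20 to -0.03 in iPax3 minus Neo, 0.30 to 0.13 in iPax7 minus Neo and -0.14 to -0.04 in Neo minus Fet.

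In the single-cell libraries, 6 of 9 members were past 2-fold, 6 with stricter cell filters, 6 with no mitochondrial limit, 6 by the mean over cells, 4 where at least 100 summed UMIs were required, and 5 in the pooled matrix, an alternative chosen after seeing the data in which the Utrn ratio was 1.22 (1.06 to 1.41). In that matrix the Sgcb ratio of cells with a Myog UMI to cells without was 0.967 (0.720 to 1.33), against 1.28, with only 120 cells without. Depth limits low values: in Fet replicate 1, with 516504 counts, 1 count stood at 1.73 CPM.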
